A study of Mus musculus with 6 samples.

Results

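The genes described here build, modify and break down sphingolipids and glycosphingolipids. They were taken from a fixed list of 35 genes, matched to the array through current and older symbols, and read from probe sets annotated to 1 gene alone. All 35 had such a probe set, 79 probe sets in all, and 33 genes passed the filter on dim signal, out of 14222 genes tested. The other members, Ugt8a and Acer1, were too dim to test. Mouse bladder epithelium at postnatal day 7 gave 6 RNA samples, 3 of DsRed-positive cells and 3 of DsRed-negative cells, each read on an Affymetrix mouse array and numbered 1, 2 or 5 in its group. DsRed is a red fluorescent protein.

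Both groups carried the same labels apart from DsRed. Every sample was given the allele B6;129P-Upk1btm1Zhang/J as its reporter gene, the strain FVB/N x C57BL/6, male sex and Theiler stage TS28, and was marked as not pooled. The labels do not state which cells the allele marks with DsRed, or how positive and negative cells were separated. They do not say that samples came from separate animals either, so the p-values reflect spread among these 6 samples, which may be technical, and the number of arrays limits the precision. All values are given for DsRed-positive cells against DsRed-negative cells. Levels are log2 signals after an offset and quantile normalization, a change is the difference of the 2 group means of such levels, and a gene was called where the adjusted p of limma over all tested probe sets was below 0.05. Levels are compared between groups for 1 gene and not between genes.

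Sphingolipids are membrane lipids built on a long-chain base. Serine palmitoyltransferase starts the base from serine and a fatty acyl-CoA, ceramide synthases attach a fatty acid to it, and a desaturase or hydroxylase turns the product into ceramide or phytoceramide. Ceramide then receives a head group, which gives sphingomyelin, ceramide 1-phosphate or the sugar-bearing glycosphingolipids, or is broken down through sphingosine to sphingosine 1-phosphate, a signalling lipid with its own cell-surface receptors. In epithelia that form barriers, ceramides and glycolipids are major lipids of the outer surface, and the urothelium, the lining of the bladder, is one of the least permeable of these.

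Upk1b, the uroplakin gene named in the allele, was the check of the group labels. Its deposited signal was 48415, 98990 and 94871 on the positive arrays, against 9626, 4515 and 2797 on the negative arrays, a log2 change of 4.27 (19.2-fold, adjusted p = 0.00105). All 14 markers of urothelium were called higher, and their summed signal ranged from 465201 to 757857 in positive cells and from 48975 to 120068 in negative cells. Markers of most other cell types moved the opposite way. All 10 fibroblast and matrix markers were called lower, with sums of 15751 to 29581 in positive cells and 795899 to 1761310 in negative cells. All 7 leukocyte markers were lower (2106 to 3435 against 33488 to 47211), as were 5 of 6 tested endothelial markers (1450 to 2069 against 11266 to 17407), 5 of 7 tested smooth muscle and mural markers (43813 to 53542 against 132235 to 222886, with 1 called higher) and both tested erythroid markers (144 to 199 against 1405 to 3598). The smooth muscle and mural marker called higher was Rgs5 (45142, 41325 and 50648 in positive cells, 23559, 11231 and 24132 in negative cells). Its signal makes up most of the sum of that list in positive cells. Of 5 tested nerve and Schwann markers, 1 was higher and none lower (3180 to 4034 against 2198 to 3320). The one called higher was Mbp (3182, 2981 and 2380 in positive cells, 1627, 887 and 864 in negative cells). Most of that sum in positive cells is Mbp signal, and the other tested markers had negative changes (-1.23 to -0.22) that did not pass. No marker was at 0 on any array. The part these cell types have in the results below was not tested, and in such bulk samples fewer cells of a type and less RNA per cell cannot be told apart. The ratio of 3′ to 5′ actin signal, a measure of RNA and labelling quality, was 4.28 to 5.57 on the positive arrays and 6.85 to 9.49 on the negative arrays. The same ratio for Gapdh ran the other way, at 11.9 to 16.4 on the positive arrays and 10.2 to 12.8 on the negative arrays, and the part of RNA quality was not tested. On the 2 arrays numbered 1, the X-linked Xist was high and the Y-linked Eif2s3y low (Xist 15.08 and Eif2s3y 6.32 in positive cells, 15.48 and 5.44 in negative cells), against the label of male sex, so results without both arrays numbered 1 are given where a call is lost.

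Of the 33 members tested, 4 were called higher in DsRed-positive cells, Sptlc1, Degs2, Acer2 and Sgpl1, where 9.21% of all genes were called higher. Another 5 were called lower, Degs1, Sgms2, Cerk, St3gal5 and Sphk1, where 11.3% of all genes were called lower. Together 27.3% of the tested members were called, beside 20.5% of all genes. The median change of the members was -0.05 and that of all genes was 0.04. The lowest positive array lay above the highest negative array for 6 members (22.0% of all genes), the highest positive array lay below the lowest negative array for 11 (21.4% of all genes), and the groups overlapped for 16. Of the 63 tested probe sets of the members, 7 were higher and 7 lower, where 8.63% and 8.62% of all tested probe sets were called, and in no member with several probe sets were calls made in both directions. With arrays centred on their medians in place of quantile normalization, 6 members were called higher and 5 lower. In that setting 18% of all genes were called higher and 9.82% lower, and the median change of all genes moved to 0.37. Against this background the share called sets the members little apart from other genes, and the calls ran in both directions along the pathway.

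Counts by role rest on few genes each and stand beside the 9.21% of all genes called higher and the 11.3% called lower. Of 9 genes of ceramide synthesis, 2 were higher and 1 lower, with a median change of -0.27. Of 7 tested genes that add a head group to ceramide or extend one, none was higher and 3 were lower, with a median of -1.45. None of the 8 genes for the release of ceramide, or for steps that lead to it, was called (median -0.12, 1 with an unadjusted p below 0.05 in limma). Among the ceramidases 1 of 4 tested was higher (median 0.60), and among the 5 genes of sphingosine 1-phosphate 1 was higher and 1 lower (median -0.01).

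**Figure D1:**
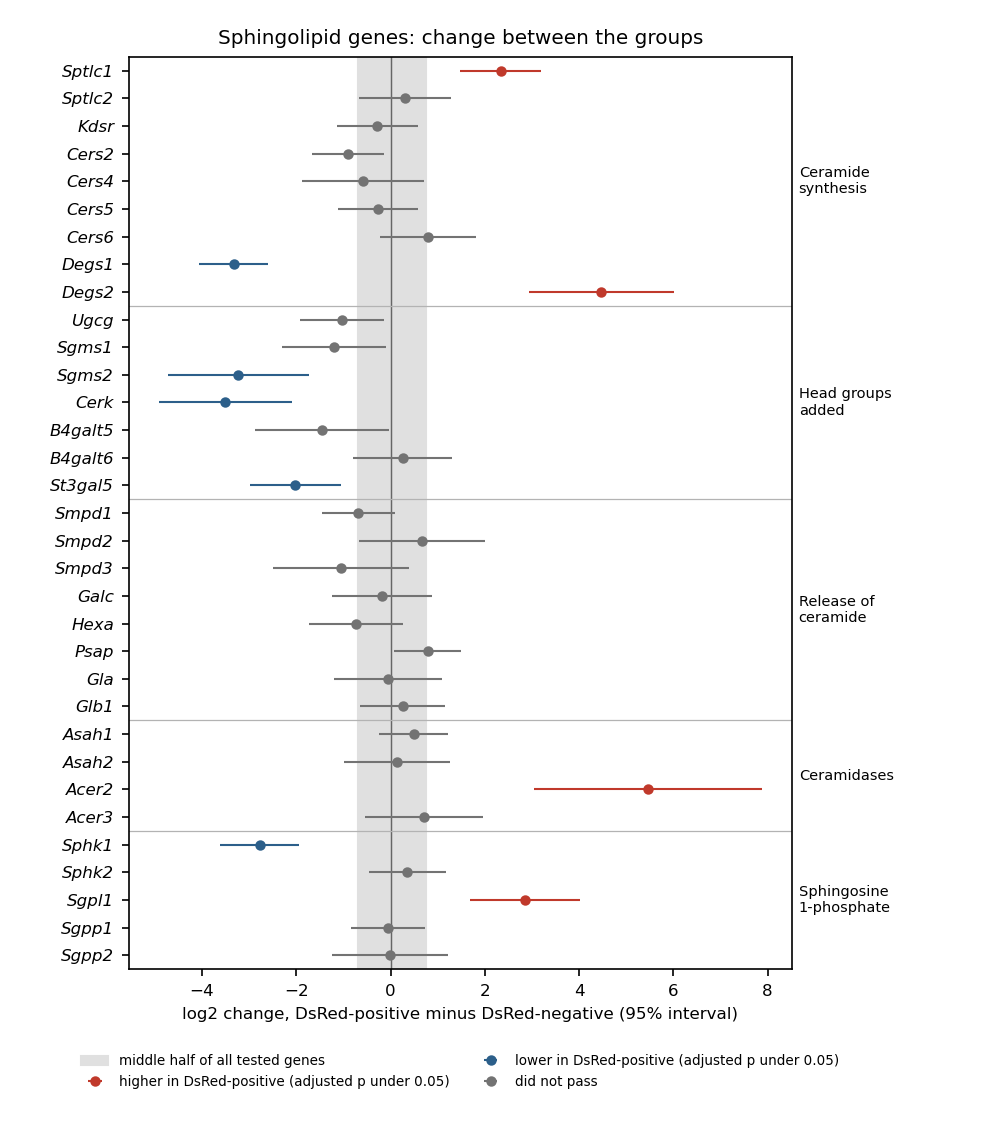
Change of each of the 33 tested members on the log2 scale (positive minus negative, horizontal axis), grouped by role; points are limma estimates with 95% confidence intervals, coloured by call, and the shaded band is the interquartile range of all tested genes, -0.68 to 0.76. Acer2 (5.47) and Degs2 (4.47) lie farthest to the right and Cerk (-3.50) and Degs1 (-3.33) farthest to the left.

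Promoter sequences are shown for the 4 members called higher and for Degs1, the last because the 2 desaturase genes of 1 step moved in opposite directions. RefSeq promoter windows on GRCm38.p6, from 250 bases before to 50 after an annotated start, were found for 32 of the 35 members (48 windows in all). Those printed lie at chr12:108702257-108702556 (Degs2), chr13:53377312-53377611 (Sptlc1), chr10:61147635-61147934 (Sgpl1) and chr1:182282146-182282445 (Degs1), all on the minus strand, and at chr4:86874164-86874463 (Acer2) on the plus strand. Each is written 5′ to 3′ along its gene. Capitals mark GGGGCGGGG, the letters bound by Sp and KLF factors, on either strand.
Degs2: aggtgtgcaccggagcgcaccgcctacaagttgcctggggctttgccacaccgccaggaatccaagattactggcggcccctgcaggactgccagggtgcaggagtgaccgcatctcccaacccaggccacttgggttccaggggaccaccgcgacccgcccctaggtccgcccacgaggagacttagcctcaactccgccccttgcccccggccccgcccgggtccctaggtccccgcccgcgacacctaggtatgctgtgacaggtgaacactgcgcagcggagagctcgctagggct
Sptlc1: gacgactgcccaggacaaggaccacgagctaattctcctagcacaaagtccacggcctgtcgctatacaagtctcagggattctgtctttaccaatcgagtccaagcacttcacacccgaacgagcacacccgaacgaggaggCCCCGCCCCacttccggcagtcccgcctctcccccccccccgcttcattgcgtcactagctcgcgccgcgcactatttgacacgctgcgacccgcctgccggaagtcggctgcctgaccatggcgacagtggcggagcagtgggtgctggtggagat
Acer2: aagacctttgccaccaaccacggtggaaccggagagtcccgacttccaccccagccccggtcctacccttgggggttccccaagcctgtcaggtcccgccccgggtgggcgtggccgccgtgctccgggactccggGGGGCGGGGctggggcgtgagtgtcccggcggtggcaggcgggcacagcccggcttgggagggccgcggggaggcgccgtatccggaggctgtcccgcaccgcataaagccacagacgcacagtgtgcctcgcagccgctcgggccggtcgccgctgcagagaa
Sgpl1: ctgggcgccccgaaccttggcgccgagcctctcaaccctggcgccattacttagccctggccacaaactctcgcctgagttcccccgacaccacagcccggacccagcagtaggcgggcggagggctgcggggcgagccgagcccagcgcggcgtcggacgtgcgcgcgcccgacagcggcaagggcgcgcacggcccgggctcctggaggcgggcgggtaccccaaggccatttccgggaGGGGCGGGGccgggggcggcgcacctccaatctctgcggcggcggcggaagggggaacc
Degs1: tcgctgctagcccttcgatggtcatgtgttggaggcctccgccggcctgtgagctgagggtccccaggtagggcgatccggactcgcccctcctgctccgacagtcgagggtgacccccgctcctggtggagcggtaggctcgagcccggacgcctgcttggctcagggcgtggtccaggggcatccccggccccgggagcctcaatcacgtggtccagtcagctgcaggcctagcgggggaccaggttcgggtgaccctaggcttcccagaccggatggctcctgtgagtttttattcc
GGGGCGGGG began at position -107 from the start in Sptlc1, at -114 in Acer2 and at -9 in Sgpl1, and its letters were in neither desaturase window. It was found in 13 of the 48 member windows and in 11.4% of 32851 windows of all genes. The letters AACCGGTT, bound by grainyhead factors of epithelia, were in 1 member window, of Sgms1, and in 0.146% of all windows. AGATAA, bound by GATA factors, was in 5 member windows and in 11.2% of all windows. Among these 5 are overlapping windows of Sphk1 that hold the same site, at -124 and -131 from their starts. TCACGTGA, the core of the lysosomal CLEAR element, occurred in 1 member window, of Gla, at -228 and -195, and in 0.974% of all windows. Neither ACCGGAAGT of ETS factors (1.1% of all windows) nor the DR1 element of nuclear receptors (0.0396%) was found in a member window. Both strands were searched, matches of different motifs did not overlap in a member window, and a match is a description of the letters and not a binding site.

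Serine palmitoyltransferase takes the first step of the pathway. Sptlc1, its common subunit, had levels of 13.53, 13.26 and 13.25 in positive cells and 11.57, 10.65 and 10.81 in negative cells. Every positive array was above every negative one. The change was 2.34 ± 0.37 (SE, 5.05-fold, adjusted p = 0.00481), and 2 of its 3 tested probe sets were called higher. Without both arrays numbered 5 its adjusted p was 0.0585. Sptlc2, the subunit that pairs with it in the enzyme, had levels of 12.77, 12.68 and 12.30 in positive cells and 12.13, 13.00 and 11.69 in negative cells. The groups overlapped, and its change of 0.31 did not pass (adjusted p = 0.662, 95% interval -0.68 to 1.29). Kdsr, the reductase of the next step, overlapped as well, with a change of -0.28 (adjusted p = 0.655).

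The ceramide synthases differ in the length of fatty acid that they attach, and none of the 4 members was called. Cers2, the synthase of very long chains, had levels of 11.62, 11.73 and 11.11 in positive cells and 12.47, 12.31 and 12.38 in negative cells. The groups did not overlap, but the change of -0.90 did not pass (adjusted p = 0.107, 95% interval -1.67 to -0.13). Cers4, Cers5 and Cers6 overlapped between groups, with changes of -0.59, -0.27 and 0.80. Another Cers4 probe set, with a lower mean over all arrays, was called lower with a change of -2.72 (adjusted p = 0.024). All 3 tested Cers4 probe sets had negative changes, from -2.72 to -0.27, and differed in the call. In the called one 2 of 3 positive arrays lay under the background floor described below.

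Degs1 and Degs2 encode the desaturases of the last step, and moved in opposite directions. Degs1 inserts the double bond of ceramide in most tissues. Its levels were 11.71, 12.00 and 12.11 in positive cells and 15.13, 15.32 and 15.35 in negative cells. The groups were far apart, with a change of -3.33 ± 0.31 (10.0-fold lower, adjusted p = 0.000515), and both probe sets were called lower. Degs2, which also hydroxylates the base and so makes phytoceramide, known from skin, gut and kidney, had levels of 11.78, 12.62 and 12.97 in positive cells and 8.81, 6.52 and 8.62 in negative cells. The negative array numbered 2 was lowest and lay under the background floor, set for each array from control probe sets without target (their 95th percentile), while the other negative arrays lay above their floors. The change was 4.47 ± 0.66 (22.2-fold, adjusted p = 0.00362), and 3.74 without that array, 5.23 without both arrays numbered 1 and 3.60 with an offset at the 50th percentile of all values. Both genes stayed called under each alternative run, including each fit without 1 array and without both arrays of 1 number.

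**Figure D2:**
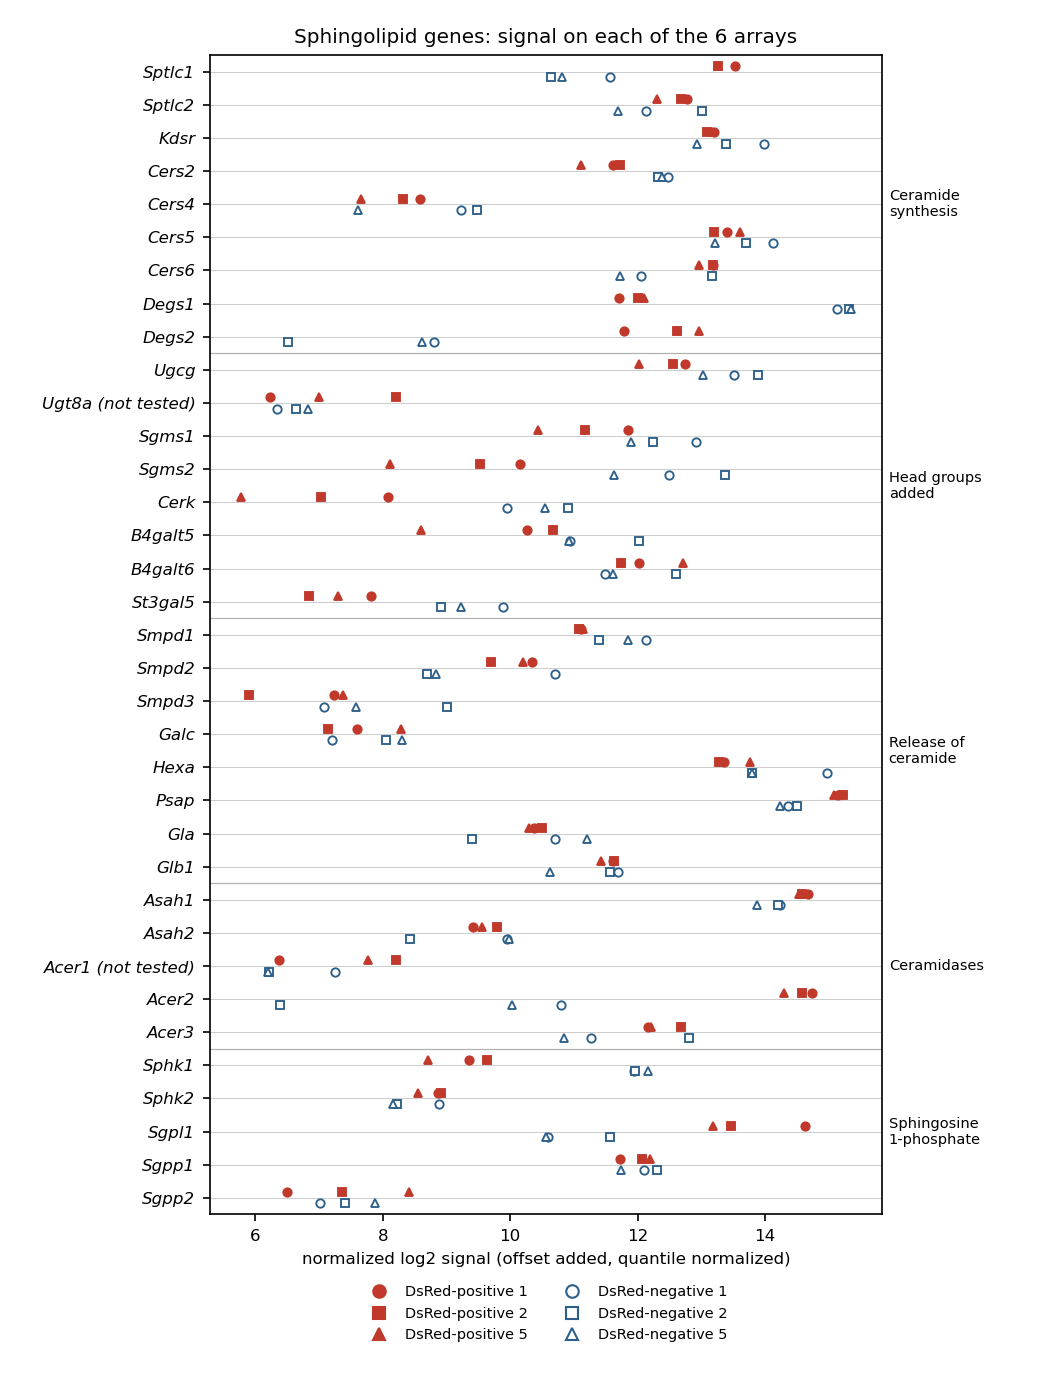
Normalized log2 signal (horizontal axis) of the 35 members on each of the 6 arrays, grouped by role; filled red marks are DsRed-positive arrays and open blue marks DsRed-negative arrays, with circles, squares and triangles for the numbers 1, 2 and 5. The marks of the 2 groups stand apart for all 9 called members, and the negative array numbered 2 is far to the left for Degs2 (6.52) and Acer2 (6.39).

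The enzymes that place a head group on ceramide or extend one were lower or did not pass. Sgms2, the sphingomyelin synthase of the plasma membrane, had levels of 10.16, 9.52 and 8.12 in positive cells and 12.49, 13.37 and 11.63 in negative cells. Positive arrays spread widely and still lay under all negative arrays. The change was -3.23 ± 0.64 (9.39-fold lower, adjusted p = 0.0130). It did not pass without both arrays numbered 1 (adjusted p = 0.0771) or without both numbered 2 (adjusted p = 0.0645). The other Sgms2 probe set was at -1.53 and did not pass (adjusted p = 0.054). Sgms1, the synthase of the Golgi, did not pass at -1.20 (adjusted p = 0.129), although all negative arrays lay above all positive ones, and its 4 tested probe sets ranged from -1.20 to 0.51.

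Cerk, the kinase that makes ceramide 1-phosphate, had levels of 8.09, 7.03 and 5.77 in positive cells and 9.94, 10.91 and 10.54 in negative cells. Positive cells were close to the background, with 2 of 3 arrays under the floor. The change was -3.50 ± 0.61 (11.3-fold lower, adjusted p = 0.00726). Its size rests on values under the floor: with signals under the highest floor of the 6 arrays set at that floor it was -2.41, still called, and with an offset at the 50th percentile it was -2.25. Without positive array 5 it was -2.91, still called, and without both arrays numbered 1 it was -4.33. Its adjusted p was 0.0533 without both arrays numbered 2 and 0.0509 without both numbered 5.

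Glycosphingolipid synthesis begins with Ugcg, which adds glucose to ceramide. Ugcg had levels of 12.74, 12.56 and 12.02 in positive cells and 13.51, 13.89 and 13.03 in negative cells. The groups did not overlap, but the change of -1.04 did not pass (adjusted p = 0.109, 95% interval -1.93 to -0.15). B4galt5 and B4galt6 add the galactose that gives lactosylceramide. B4galt5 was at 10.26, 10.67 and 8.60 in positive cells and 10.94, 12.02 and 10.93 in negative cells, without overlap, and its change of -1.45 did not pass (adjusted p = 0.148). B4galt6 was at 12.02, 11.73 and 12.72 in positive cells and 11.49, 12.61 and 11.61 in negative cells. The groups overlapped, with a change of 0.26 (adjusted p = 0.739), whereas of its 3 other tested probe sets 1 was called higher at 1.71 (adjusted p = 0.016) and those at 0.41 and -0.31 did not pass. In the fit of all arrays B4galt6 alone among the 7 tested head group genes had a positive change, which was -0.17 without both arrays numbered 5.

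St3gal5 adds sialic acid to lactosylceramide and so opens the ganglioside branch. Its levels were 7.81, 6.84 and 7.30 in positive cells and 9.88, 8.91 and 9.24 in negative cells. All positive arrays were below all negative arrays, and 2 of the 3 lay under the background floor. The change was -2.02 ± 0.42 (4.07-fold lower, adjusted p = 0.0150), or -1.31, still called, with signals under the highest floor set at it. This call was the least stable of the 9, with an adjusted p of 0.0615 without positive array 2, 0.0557 without positive array 5, 0.0711 without both arrays numbered 1, 0.0513 without both numbered 2 and 0.103 without both numbered 5. Ugt8a, which adds galactose in place of glucose and is known from myelin, had deposited signals of 27.1, 199 and 72.2 in positive cells and 53.5, 76.6 and 89.6 in negative cells, and was too dim to test.

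The genes that release ceramide from sphingomyelin and glycosphingolipids, or act in steps that lead to it, gave no call. The sphingomyelinases Smpd1 of the lysosome, Smpd2 and Smpd3 had changes of -0.68, 0.67 and -1.05, and Smpd3 lay near the background floor. Galc and Gla, galactosidases of the lysosome, and Glb1, the beta-galactosidase that acts on gangliosides, had changes of -0.18, -0.05 and 0.25, with overlapping groups. Hexa, a subunit of beta-hexosaminidase, was at 13.35, 13.28 and 13.76 in positive cells and 14.97, 13.79 and 13.80 in negative cells. The highest positive array lay just below the lowest negative one, and the change of -0.73 did not pass (adjusted p = 0.290). Psap, the precursor of the saposins that present these lipids to lysosomal enzymes, was at 15.14, 15.22 and 15.09 in positive cells and 14.35, 14.49 and 14.23 in negative cells. All positive arrays were above all negative ones with little spread, and the change of 0.79 did not pass (adjusted p = 0.121, 95% interval 0.08 to 1.50).

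Ceramidases cut ceramide to sphingosine. Acer2, the alkaline ceramidase of the Golgi, had levels of 14.74, 14.57 and 14.30 in positive cells and 10.80, 6.39 and 10.03 in negative cells. Positive arrays were close together, while the negative array numbered 2 was far below the other negative arrays and under the background floor. The change was 5.47 ± 1.04 (44.2-fold, adjusted p = 0.0106), the largest increase among the members. Without negative array 2 it was 4.13 with an adjusted p of 0.00126, and without negative array 1 it was 6.33. The adjusted p was 0.0519 without positive array 1, 0.0605 without both arrays numbered 1 and 0.0642 without both numbered 5. Another Acer2 probe set, at 0.69, did not pass, and the mean of all Acer2 probe sets gave a change of 3.08.

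The other ceramidases did not pass. Asah1, the acid ceramidase of the lysosome, was at 14.67, 14.58 and 14.53 in positive cells and 14.23, 14.20 and 13.86 in negative cells. The groups did not overlap, and the change was 0.49 (adjusted p = 0.326, 95% interval -0.23 to 1.22). Asah2, the neutral ceramidase, had a change of 0.14 (adjusted p = 0.877) and Acer3 of 0.71 (adjusted p = 0.413), with 4 Acer3 probe sets between -1.11 and 1.28. Acer1, the alkaline ceramidase known from epidermis, had deposited signals of 33.5, 199 and 155 in positive cells and 139, 46.4 and 41.4 in negative cells, which was too dim to test.

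Sphingosine 1-phosphate is made by 2 kinases and removed by a lyase or by phosphatases. Sphk1, the kinase induced by growth factors, had levels of 9.36, 9.64 and 8.72 in positive cells and 11.94, 11.96 and 12.16 in negative cells. Negative arrays were tightly grouped above all positive ones. The change was -2.78 ± 0.36 (6.87-fold lower, adjusted p = 0.00201), and the call held in each alternative run. Sphk2, the other kinase, was at 8.86, 8.91 and 8.56 in positive cells and 8.89, 8.22 and 8.16 in negative cells. The groups overlapped and the change of 0.36 did not pass (adjusted p = 0.532), while a second Sphk2 probe set was called higher at 1.65 (adjusted p = 0.042).

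Sgpl1, the lyase that ends the pathway by cleaving sphingosine 1-phosphate, had levels of 14.63, 13.46 and 13.19 in positive cells and 10.59, 11.56 and 10.57 in negative cells. Positive array 1 was highest, and the groups were well apart. The change was 2.85 ± 0.50 (7.23-fold, adjusted p = 0.00753). Without both arrays numbered 1 the change was 2.26 with an adjusted p of 0.0796. The adjusted p was 0.0501 without both numbered 5, and its other probe set, at 1.93, did not pass (adjusted p = 0.097). The phosphatases, which turn sphingosine 1-phosphate back into sphingosine, showed no call. Sgpp1 was at 11.72, 12.07 and 12.19 in positive cells and 12.10, 12.31 and 11.74 in negative cells, with a change of -0.05 (95% interval -0.84 to 0.73). Sgpp2 was near the background in both groups, with 2 positive and 3 negative arrays under the floor and a change of -0.01.

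**Figure D3:**
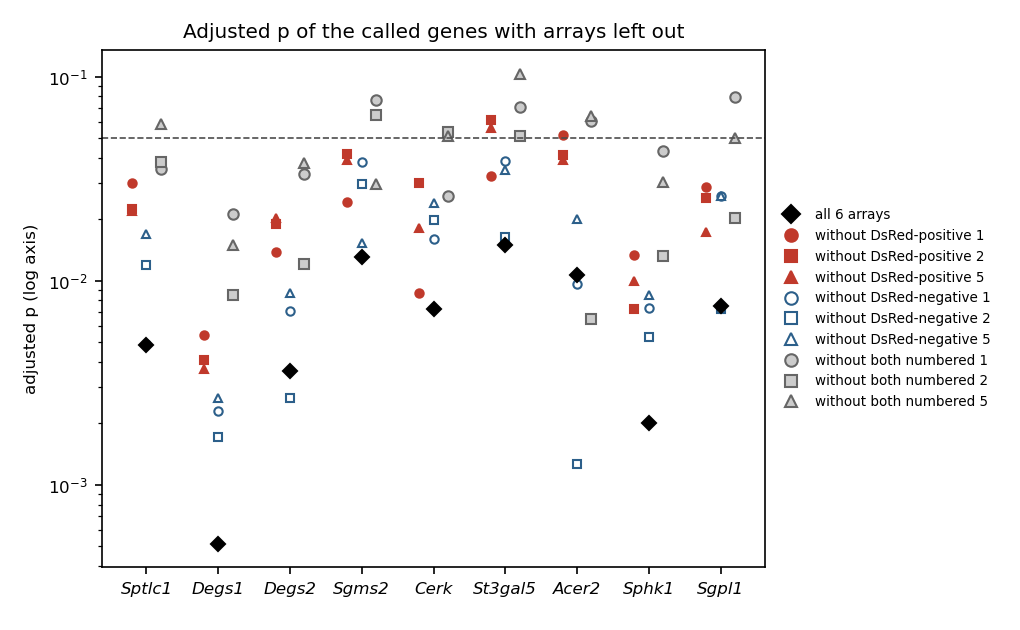
Adjusted p of limma (vertical log axis, dashed line at 0.05) for the 9 called members in the fit of all 6 arrays (black diamonds) and in fits without 1 positive array (filled red), without 1 negative array (open blue) or without both arrays of 1 number (grey). Degs1, Degs2 and Sphk1 lie below the line in each fit, and St3gal5 lies above it in 5 of the fits with arrays left out.

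The rest of the pathway was read from a list of 49 other genes, of which 39 were tested. Of these, 9 were called higher and 7 lower, so that 41% of them were called, where 20.5% of all genes were (9.21% higher and 11.3% lower), and the median change was 0.12. The list was written with earlier results of these data known, so this share cannot be read as a result about the pathway. Genes called higher lay in ceramide synthesis and its regulation and in fatty acid elongation, with 1 carrier and 1 glycolipid enzyme besides, and genes called lower in glycolipid synthesis, 1 gene of glycolipid breakdown and the sphingosine 1-phosphate receptors. Those not analysed here include Ormdl2, Ormdl3 and Cers1, whose probe sets were annotated to several genes, and St8sia1, S1pr5 and Mfsd2b, which were too dim.

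Among the regulators of serine palmitoyltransferase, 3 of 4 tested were called higher. Sptssb, a small subunit that activates the enzyme, had levels of 16.62, 16.30 and 15.84 in positive cells and 11.55, 12.32 and 10.98 in negative cells. All positive arrays stood well above the negative ones, with a change of 4.64 (24.9-fold, adjusted p = 0.000539). Its counterpart Sptssa had a change of -0.36, which did not pass. Ormdl1, of the family that restrains the enzyme, was higher by 3.55 (11.7-fold, adjusted p = 0.00122). Sptlc3, an alternative to Sptlc2, was higher by 3.52 (adjusted p = 0.0386). This call was lost without any 1 of the 3 positive arrays (adjusted p of up to 0.129, without array 1) and without negative array 5 (0.0567), and the change was 2.36 without negative array 2.

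Cers3, the synthase of ultra-long ceramides of skin and testis, had levels of 15.22, 15.56 and 14.92 in positive cells and 12.25, 11.02 and 8.95 in negative cells. Negative arrays varied widely below all positive ones, and the change was 4.49 (22.5-fold, adjusted p = 0.00701), or 3.60 without negative array 5 and 5.25 without negative array 1, called in both. Fa2h, which adds a hydroxyl group to the fatty acid, was higher by 2.22 (adjusted p = 0.0248), a call lost without any 1 of the 3 positive arrays (adjusted p of up to 0.0858). Of 5 elongases tested, 2 were called: Elovl4, which makes very long chains, was higher by 3.45 and Elovl6, which extends palmitate, by 2.61 (adjusted p = 0.00220 and 0.00392). The Elovl4 call was lost without both arrays numbered 1 (adjusted p = 0.0534), and 2 of its 3 negative arrays lay under the floor. Elovl1 (0.26), Elovl3 (-0.29) and Elovl7 (0.49) did not pass, although 3 Elovl7 probe sets with a lower mean over all arrays were called higher (2.16 to 4.64). The one at 4.64 had signals of 2308, 2601 and 2268 in positive cells, against 617, 616 and 426 for the representative probe set. The one at 2.16 had all 3 negative arrays under the floor (at least 1.41-fold), and the others 2. The Elovl7 probe sets thus disagreed in the size of the change and in the call. Gltp, a carrier of glycolipids between membranes, was higher by 1.53 (adjusted p = 0.0245), and the call was lost without positive array 2 or 5 or negative array 1 or 5 (up to 0.0875). Cert1, which carries ceramide to the Golgi, had levels of 13.56, 12.92 and 13.57 in positive cells and 13.65, 12.99 and 13.42 in negative cells, and did not pass, nor did the other carriers tested, Cptp (0.36), Plekha8 (-0.44) and Abca12 (-0.47).

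In complex glycolipid synthesis 3 of 9 tested genes were lower and 1 was higher. A4galt, which makes globotriaosylceramide, had levels of 5.72, 5.70 and 6.15 in positive cells and 9.53, 9.83 and 10.83 in negative cells. All positive arrays lay under the background floor, so it was at least 5.95-fold lower (adjusted p = 0.000693). B3galnt1, the next enzyme of the globoside branch, was lower by a change of -1.96 (adjusted p = 0.0195), and the sialyltransferase St3gal2 by -1.69 (adjusted p = 0.0190). The B3galnt1 call was lost without positive array 1 or 5 (adjusted p of up to 0.0755) and the St3gal2 call without any 1 of the 3 positive arrays (up to 0.0727). B3galt4, a galactosyltransferase of gangliosides, was higher by 1.47 (adjusted p = 0.0491), with 2 of 3 negative arrays under the floor. Among the 6 fits without 1 array its call held only without negative array 1 (adjusted p of up to 0.155 in the others). Arsa, the sulfatase of sulfatide breakdown, was at -1.49 (adjusted p = 0.0223), a call also lost without any 1 of the 3 positive arrays (up to 0.0947). The other 7 tested genes of breakdown did not pass, from Gm2a at -1.09 to Neu3 at 1.56. All 3 negative Neu3 arrays lay under the floor, so only a bound of at least 1.13-fold higher can be given. Other probe sets of Gm2a (-3.88), Fuca1 (1.42) and Smpd4 (1.63) were called, so the probe sets of these genes differed in the call.

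Of the 4 tested sphingosine 1-phosphate receptors, S1pr1, S1pr2 and S1pr3 were called lower, and S1pr4, at -0.89, did not pass (adjusted p = 0.169). Spns2, an exporter of the lipid, and Aldh3a2, which acts after the lyase, did not pass either (0.90 and 0.12). S1pr3 had levels of 7.71, 7.23 and 6.14 in positive cells and 13.07, 11.18 and 13.84 in negative cells. Of the positive arrays 2 lay under the floor. The change was -5.67 (adjusted p = 0.00194), or -6.43 without negative array 2 and -4.66 with signals under the highest floor set at it, called in both. S1pr1, known from endothelium and lymphocytes, was at 8.36, 8.40 and 8.07 in positive cells and 10.29, 11.36 and 10.37 in negative cells. The groups did not overlap and the change was -2.39 (adjusted p = 0.00595). Most fibroblast, smooth muscle, endothelial and leukocyte markers given above were also lower, and their part in this change was not tested. S1pr2 was at -1.91 (adjusted p = 0.0258), and among the fits without 1 array its call held only without negative array 2 (adjusted p of up to 0.0943 in the others). Of the 16 calls among the other pathway genes, 8 held in all 6 fits without 1 array. Without both arrays numbered 1, 6 held, and the calls of Sptlc3 (adjusted p = 0.102), Fa2h (0.078), Elovl4, Gltp (0.107), St3gal2 (0.0876), B3galnt1 (0.109), B3galt4 (0.0997), Arsa (0.155), S1pr1 (0.0586) and S1pr2 (0.109) were lost.

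**Figure D4:**
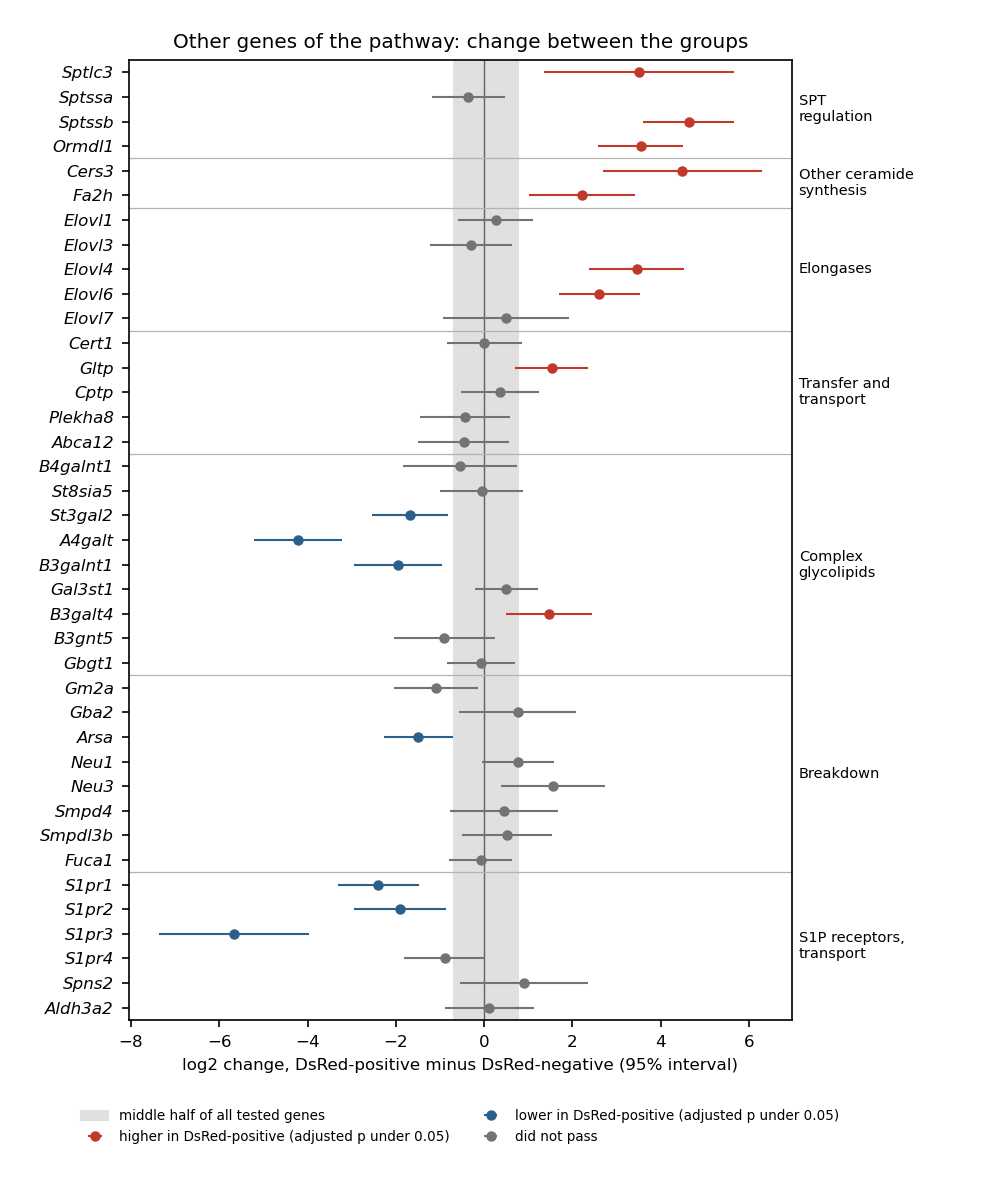
Change of the 39 other pathway genes tested (log2, positive minus negative, horizontal axis) by functional group, with 95% confidence intervals and colour by call, and a shaded band for the interquartile range of all tested genes. Sptssb (4.64) and Cers3 (4.49) lie farthest to the right, and S1pr3 (-5.67) and A4galt (-4.21) farthest to the left. All 3 positive A4galt arrays and 2 positive S1pr3 arrays lay under the background floor, so A4galt was at least 5.95-fold lower and the point overstates what was measured.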

How the data were processed

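RNA of 6 samples was amplified in 2 rounds and read on Affymetrix mouse genome arrays, per the labels' protocols. The authors deposited 1 linear probe set intensity per array. The submitters' processing notes name GCOS, of a version not given in the sources used here. Arrays had been scaled to 1 level, since the mean left by trimming 2% at each end was 1500.01 on all arrays of the deposited intensity.

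To the deposited intensity 39.84 was added before taking log2, an offset equal to the 20th percentile of the table, which understates the change of dim genes. Array medians then spanned 0.74 (7.74 to 8.48, limit 0.2), and quantile normalization followed. The arrays gave no counts, and their number limits the precision. Of 45101 probe sets, 64 controls were removed and those with a mean above the 33rd percentile (7.18) tested, which left 30175. Symbols came from the platform annotation, updated by gene ID, and 34945 probe sets had 1 gene, 932 several and 9160 none here. A gene's brightest probe set annotated to it alone, by mean over all arrays, stood for the gene. Groups were compared with limma 3.58.1 in R 4.3.3 (lmFit and eBayes, two-sided, 3 against 3, 1 shared spread, no block), adjusted by Benjamini-Hochberg over all tested probe sets at 0.05. The fit was tested on simulated data. The background floor of an array is the 95th percentile of 27 control probe sets without target (7.41 to 8.03). The normalized values of both groups share 1 distribution, and before normalization the medians differed by -0.54 (exact permutation p = 0.1, the smallest that 3 against 3 allows).

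All members were named, together with every other pathway gene past the threshold, those that went against their group, and Upk1b. The pathway genes named beside these with values that did not pass were added to show the rest of their group. The members and lists were chosen with earlier results of these data known. Alternatives covered the offset, scaling, filter, probe set choice, threshold, variance model and array weights, a block on the array number, and leaving out arrays.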

Additional observations from a re-analysis of the deposited data

How the results depend on the processing

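With 3 arrays a group, calls near the threshold depend on single arrays. Of the 9 called members, 7 kept their call in all 6 fits without 1 array, and Degs1, Degs2 and Sphk1 kept it in each of the 22 alternatives. Upk1b was called in each, with changes of 3.83 to 4.80. Of the 24 members not called, 4 were called in at least 1 alternative. These were Psap in 4 alternatives, Cers2 in 2, and Ugcg and Cers6 in 1 each, none of them in a fit without 1 array. In fits without 1 array, 3 to 4 members were higher and 4 to 5 lower, 5 to 9 and 3 to 7 of the other pathway genes, and 1694 to 2686 of all genes, against 2913 with all arrays. Without both arrays numbered 1, counts were 2 and 3 members, 4 and 2 other pathway genes and 1243 of all genes. Without both numbered 5 they were 1 and 3, 5 and 2, and 1426, and without both numbered 2 the lower members were 2 and all genes 1823; these last pairs were left out after seeing the data. Signals under the highest floor of the 6 arrays were also set at it, a fit added after seeing the data. There 5 members were higher and 6 lower, with Psap and Cers2 called besides. That fit tested other probe sets, those above that floor on at least 3 arrays. Its share of all genes is not given here, so these counts cannot be set against the others. At a threshold of 0.01, 3 members were lower, 5 and 3 other pathway genes were called and 1515 genes in all. With the array number as a replicate block 4 members were higher and 5 lower, 8 and 6 other pathway genes and 2473 genes were called, and no member's call changed. Same-numbered arrays deviated together with correlations of 0.145, 0.0372 and 0.0534, so the numbers were not taken as pairs. As hints from the data and not the design, every array correlated best with its own number, and the arrays numbered 1 shared their Xist and Eif2s3y levels. Centring on the median in place of quantile normalization moved the median change of all genes to 0.37 (deposited scaling -0.16). It moved the share of higher calls to 64.7% (37.8% as deposited, 45% in the report). Called members were then 6 higher and 5 lower, where 18% of all genes were called higher and 9.82% lower. Changes of the opposite sign, none of them called, were Kdsr 0.38, Cers5 0.35, Gla 0.39, Sgpp1 0.62 and Sgpp2 0.049 with median centring, and Asah2 -0.14, Sphk2 -0.11 and Sgpp1 0.079 as deposited. The offset at the 50th percentile gave Sgpp2 0.034, array weights Asah2 -0.026, the mean of all probe sets Asah2 -0.45 and Sgpp1 0.15, and leaving out probe sets that may cross-hybridize Sgpp1 0.26. Without both arrays numbered 1, Gla was 0.087, Sgpp1 0.11 and Sgpp2 0.24; without both numbered 2, Galc 0.18, Asah2 -0.47, Sgpp1 0.039 and Sgpp2 0.0089; without both numbered 5, B4galt6 -0.17, Gla 0.38 and Glb1 -0.013. Without 1 array, changes ranged from -0.38 to 0.40 for Asah2, -0.025 to 0.61 for B4galt6, -0.51 to 0.084 for Galc, -0.57 to 0.33 for Gla, -0.080 to 0.45 for Glb1, -0.21 to 0.085 for Sgpp1 and -0.50 to 0.45 for Sgpp2. The causes were not tested. Signal near background limits Cerk, St3gal5, Smpd3, Galc and Sgpp2. It also limits other pathway genes, among them A4galt, S1pr3, Elovl4, B3galt4 and Neu3.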
